A study of Mus musculus with 18 samples.

Results

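The 38 genes described here build the acrosome of mouse sperm, anchor it to the nucleus, or carry the head through the zona and into fusion with the egg. They were chosen by symbol, as genes of the acrosome, the perinuclear theca and fertilization that round spermatids express. All 38 of 38 listed symbols were found among the 20979 genes kept from the table, and all 38 were among the 13874 genes tested. Testis RNA of ICR mice, an outbred stock, aged 10 weeks was sequenced in 18 libraries, 3 in each of 6 groups. HFD_STZ_AOS_FMT and HFD_STZ_control_FMT mice were fed a high fat diet, given STZ (streptozotocin, which kills pancreatic beta cells) and received FMT (in common usage a fecal microbiota transfer), labelled AOS 10 mg/kg or control. HFD_STZ_AOS mice had the diet, STZ and AOS at 10 mg/kg, HFD_STZ mice had the diet and STZ, AOS mice had AOS at 10 mg/kg, and control mice were labelled as control only. AOS is an abbreviation that the labels do not spell out, and the labels give neither the STZ dose nor the donors of the transfers. Nor do they say that the 3 libraries of a group came from separate animals, so the p-values below measure the spread between libraries, which may be technical.

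The acrosome is a vesicle that round spermatids form from Golgi-derived granules and spread over the front of the nucleus, where the acroplaxome and perinuclear theca hold it. It stores proteases, hyaluronidase and other proteins until the acrosome reaction releases them and exposes the membrane proteins that bind the egg. Several egg-binding proteins, the ADAM family above all, reach the sperm surface only after folding by chaperones of the testis endoplasmic reticulum. Most of these genes are switched on in late spermatocytes and round spermatids, so in whole testis their level follows both the number of such cells and the RNA in each of them, and these cannot be told apart in bulk RNA.

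RefSeq promoter windows of 250 bases before the annotated start (GRCm38.p6) were matched by symbol for 29 of the 38 genes. Where a symbol had several windows, as Spaca1, Spaca3, Lyzl4, Calr3 and Spink2 did, only the first listed was used. The windows of Crisp2 and Tex101 lie inside those genes as annotated by GENCODE vM21, so the counts below depend on the start taken. Shown 5′ to 3′ are those of Izumo2 and Dpy19l2, whose levels moved most against each other between libraries, and of Izumo1, the fusion protein itself. Capitals mark TGACGTCA, the full cAMP response element bound by the spermatid regulator CREM.
Izumo2 (chr7:44708480-44708729, plus strand): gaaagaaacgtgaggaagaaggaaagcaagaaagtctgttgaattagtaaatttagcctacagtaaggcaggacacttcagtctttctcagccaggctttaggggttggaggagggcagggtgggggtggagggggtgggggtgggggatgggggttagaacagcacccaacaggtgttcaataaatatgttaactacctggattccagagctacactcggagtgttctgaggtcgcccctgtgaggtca
Dpy19l2 (chr9:24696294-24696543, minus strand): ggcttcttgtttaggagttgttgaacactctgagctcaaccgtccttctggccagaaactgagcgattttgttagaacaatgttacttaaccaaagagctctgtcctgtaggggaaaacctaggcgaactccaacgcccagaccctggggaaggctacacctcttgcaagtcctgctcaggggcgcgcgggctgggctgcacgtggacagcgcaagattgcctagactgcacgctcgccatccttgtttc
Izumo1 (chr7:45621561-45621810, plus strand): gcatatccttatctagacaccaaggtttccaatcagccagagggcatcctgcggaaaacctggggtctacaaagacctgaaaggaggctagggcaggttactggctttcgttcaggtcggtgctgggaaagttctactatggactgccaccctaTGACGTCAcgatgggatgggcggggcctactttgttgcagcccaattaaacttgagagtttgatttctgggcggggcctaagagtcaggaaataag
Both strands were searched. TGACGTCA stood in 1 of the 29 windows, that of Izumo1, at -96 to -89 from the start, against 1.62% of all windows of that length and 2.66% of those of tested genes. Its first 6 letters, TGACGT, which the full motif contains on both strands, stood in 2 of 29 (6.90%, Izumo1 and Acrbp) against 6.56% of all windows and 9.62% of those of tested genes. GTTGCC, part of the X-box bound by RFX factors, stood in 5 of 29 (17.2%: Acrbp, Actl7b, Calr3, Dkkl1 and Spesp1) against 10.5% and 11.7%. AACNGTT, the core bound by A-MYB, stood in 2 (6.90%: Actl7b and Spesp1) against 3.68% and 3.08%. TATAAA stood in 3 (10.3%: Actl9, Crisp2 and Spaca7), below the 13.0% of all windows and above the 6.74% of those of tested genes. These are matches of letters in a window and not measured sites, and the Izumo2 and Dpy19l2 windows held none of the motifs searched.

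The deposited values were RPKM, reads per kilobase of gene scaled to the library total. Levels of different genes can thus be set against each other only roughly, as the annotation behind the gene lengths is not given. Total RPKM ran from 588081 to 646822 per library, and 13022 to 13490 genes reached 1 RPKM. All 12 listed round spermatid markers were detected, Meig1 at 2068 to 2869 RPKM among them. Libraries of the same group correlated across genes at 0.988 to 0.995 and libraries of different groups at 0.984 to 0.994. In 4 libraries Crisp1, a gene of the epididymis, was at 117 to 165 RPKM against at most 23.1 RPKM in the other 14: HFD_STZ_AOS_FMT replicate 3, HFD_STZ_control_FMT replicate 2, HFD_STZ_AOS replicate 3 and control replicate 3. The 8 listed epididymal markers summed to 31.5 to 372 RPKM in HFD_STZ_AOS_FMT, 10.0 to 232 in HFD_STZ_control_FMT, 9.51 to 344 in HFD_STZ_AOS, 6.86 to 7.50 in HFD_STZ, 3.96 to 5.75 in AOS and 6.64 to 345 in control. Crisp1, Cd52 and Spink8 carried most of it, averaging 35.6, 30.7 and 10.4 RPKM of a mean sum of 83.25 RPKM. Lcn5, Lcn8, Adam7 and Defb20 of that list were at 0 in at least 1 library. Lcn5 and Lcn8 reached at most 0.12 and 0.91 RPKM, and Rnase10 was at 1.5 to 4.3 RPKM. Crisp2, the testis member of the same family and one of the 38, was at 1767 to 1853 RPKM in these 4 libraries, against 1716 to 1992 RPKM in the other 14.

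All 38 genes were abundant and varied little over the 18 libraries, though the spread of other genes of like level was not set beside theirs. Their lowest value in any library was 42.3 RPKM and their highest 1992 RPKM. The median of their 18-library means was 155 RPKM, against 8.54 RPKM for all tested genes, and 15 of the 38 lay above the 95th percentile of tested genes, 167 RPKM. 29 averaged above 100 RPKM, 8 averaged 50 to 100 RPKM and 1, Spam1, averaged less. Together they made up 1.63% to 1.80% of the RPKM of a library. The coefficient of variation over the 18 libraries was 2.81% (Zpbp) to 9.40% (Spaca7), with a median of 5.99%, and the highest group mean exceeded the lowest by 1.03-fold to 1.22-fold (Cylc2), with a median of 1.10-fold.

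**Figure D1:**
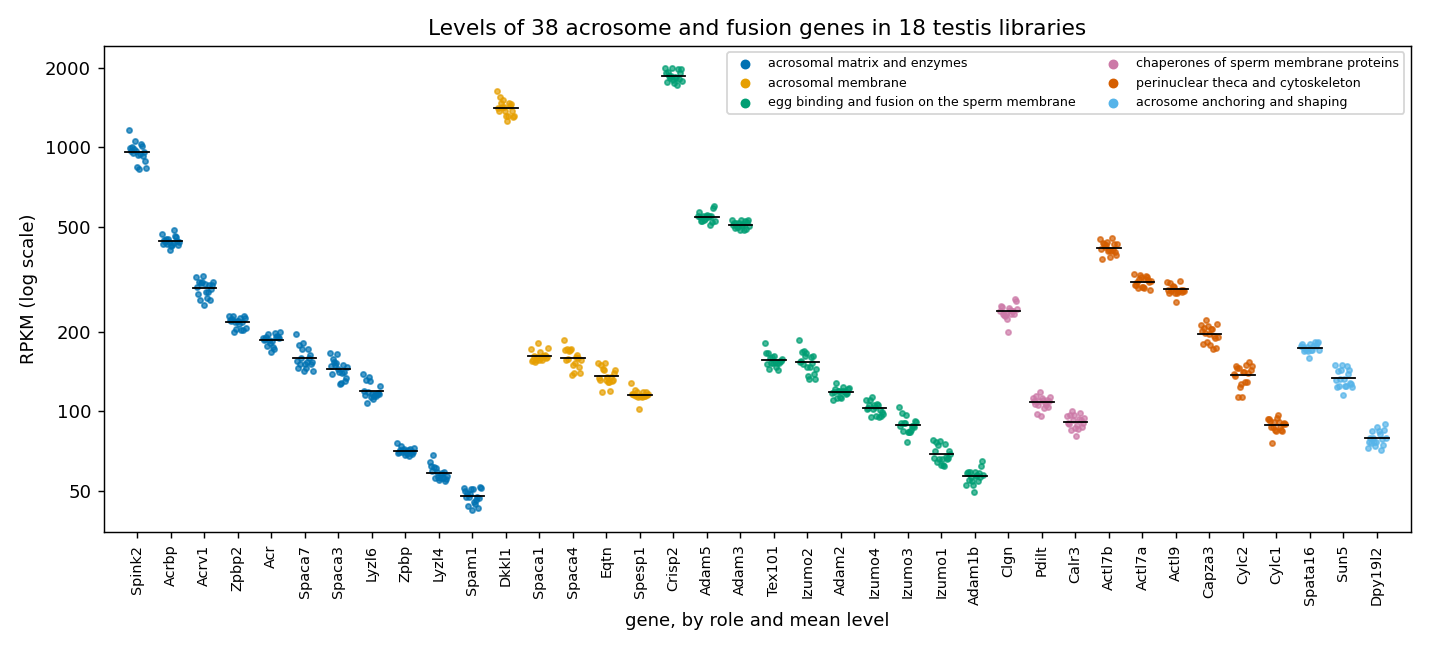
RPKM on a log scale of the 38 genes in each of the 18 libraries (points), with the mean over all 18 (black line), ordered by role and level. Crisp2, Dkkl1 and Spink2 stand highest, Spam1 lowest, and the 18 points of a gene span at most 1.41-fold.

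The proteins of the acrosomal matrix are the first group, 11 genes with means between 47.6 and 958 RPKM. Acr encodes acrosin, the main protease of the matrix, and lies on chr15:89568326-89574585, plus strand (GRCm38, GENCODE vM21). In HFD_STZ_AOS_FMT testes Acr was at 190.0, 186 and 187 RPKM, and in HFD_STZ_control_FMT testes at 191, 177 and 196 RPKM. In HFD_STZ_AOS it was at 185, 180.5 and 167 RPKM, against 185, 175 and 172 RPKM in HFD_STZ. The AOS libraries had 197, 191 and 192 RPKM, against 192, 189.6 and 199 RPKM in control. All 6 libraries of the HFD_STZ and HFD_STZ_AOS groups were below all 6 of the AOS and control groups, as in 0.238% of all tested genes. The libraries of the transfer groups lay between and among them. Averaged over the groups with and without AOS, Acr was at 177 ± 7.42 RPKM with the diet and STZ, against 193 ± 3.70 RPKM without them (SD, n = 6 each). That main effect of HFD_STZ was -0.13 ± 0.03 in log2(RPKM + 1) (estimate and SE, adjusted p = 0.0478) in limma with Benjamini-Hochberg adjustment over all tested genes, so Acr fell. It was the only one of the 38 to pass there (2.63%), while 2.85% of all tested genes passed, 0.454% lower and 2.40% higher. The call rests on few libraries, since leaving out any one of 10 of the 12 libraries ended it (adjusted p 0.0607 to 0.122). It also ended without the 4 libraries high in Crisp1, at a log2 difference of -0.09 and an adjusted p of 0.170.

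Acrbp binds the precursor of acrosin and keeps it packed and inactive. Acrbp was at 470.0, 429 and 443 RPKM in HFD_STZ_AOS_FMT and 438, 449 and 431 RPKM in HFD_STZ_control_FMT. It was at 448, 436 and 406 RPKM in HFD_STZ_AOS, against 424, 427 and 433 RPKM in HFD_STZ. In AOS it reached 486, 459 and 456 RPKM, against 439, 426 and 436 RPKM in control. The AOS libraries did not overlap the control ones, but the difference missed the threshold (log2 difference 0.11 ± 0.04, limma adjusted p = 0.292). Spink2, a Kazal-type inhibitor that guards spermatids against acrosin, was the third most abundant of the 38. Spink2 was at 1164, 988 and 965 RPKM in HFD_STZ_AOS_FMT and 998, 952 and 982 RPKM in HFD_STZ_control_FMT. HFD_STZ_AOS testes had 1056, 963 and 840.0 RPKM of Spink2, against 929, 828 and 942 RPKM in HFD_STZ. AOS testes had 1028, 1009 and 923 RPKM, against 959, 886 and 834 RPKM in control. The single highest value, in HFD_STZ_AOS_FMT replicate 1, stood apart from the other libraries of that group. All 6 libraries of the transfer groups were above all 3 of HFD_STZ, while the groups of each pair above overlapped.

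Spaca3, Lyzl4 and Lyzl6 are lysozyme-like proteins of the acrosome. Spaca3 was at 167, 148 and 138 RPKM in HFD_STZ_AOS_FMT and 158, 153 and 149.5 RPKM in HFD_STZ_control_FMT. In HFD_STZ_AOS it was at 152, 164 and 144 RPKM, against 140.3, 127 and 128 RPKM in HFD_STZ. AOS libraries held 139.9, 149 and 141 RPKM of it, against 129.9, 133 and 147 RPKM in control. HFD_STZ_control_FMT and HFD_STZ_AOS lay wholly above HFD_STZ, and HFD_STZ_AOS_FMT did so in 2 of 3 libraries. Lyzl6 was at 138, 119 and 115 RPKM in HFD_STZ_AOS_FMT and 131, 107 and 118 RPKM in HFD_STZ_control_FMT. It was at 135, 129.9 and 113 RPKM in HFD_STZ_AOS, against 116, 111 and 115 RPKM in HFD_STZ. The values were 116, 114 and 116 RPKM in AOS, against 117, 116 and 125 RPKM in control. For Lyzl6 the groups of each of these pairs overlapped, and Lyzl4 averaged 58.6 RPKM. Spam1, the PH-20 hyaluronidase that helps sperm through the cumulus, was the least abundant of the 38. Spam1 was at 51.1, 49.96 and 47.4 RPKM in HFD_STZ_AOS_FMT and 49.1, 43.6 and 47.2 RPKM in HFD_STZ_control_FMT. It was at 48.5, 50.5 and 42.3 RPKM in HFD_STZ_AOS, against 51.0, 45.1 and 44.5 RPKM in HFD_STZ. For AOS the values were 46.1, 47.4 and 42.8 RPKM, against 46.9, 51.7 and 51.4 RPKM in control. The groups of each pair overlapped for Spam1 too. The other matrix genes were Acrv1, the matrix protein SP-10, at 292 RPKM, Zpbp2 at 217, Spaca7 at 159 and Zpbp at 70.6 RPKM on average over 18 libraries. Zpbp and Zpbp2 are related matrix proteins that bind the zona, and Spaca7 is released in the acrosome reaction.

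Among the 5 genes of the acrosomal membrane, Dkkl1 was by far the most abundant. It encodes a glycoprotein of the acrosome. Dkkl1 was at 1637, 1401 and 1374 RPKM in HFD_STZ_AOS_FMT and 1548, 1463 and 1423 RPKM in HFD_STZ_control_FMT. In HFD_STZ_AOS testes it was at 1512, 1412 and 1365 RPKM, against 1315, 1257 and 1306 RPKM in HFD_STZ. AOS gave 1471, 1431 and 1450.0 RPKM, against 1369, 1301 and 1307 RPKM in control. All libraries of both FMT groups and of HFD_STZ_AOS were above all 3 of HFD_STZ, and all AOS libraries were above the control ones. None of these differences passed the threshold (log2 difference 0.19 ± 0.06, limma adjusted p = 0.150 for HFD_STZ_control_FMT, the nearest). Eqtn, equatorin, lies in the acrosomal membrane of the equatorial segment and takes part in the acrosome reaction. Eqtn was at 153, 134 and 131 RPKM in HFD_STZ_AOS_FMT and 149.6, 118 and 144 RPKM in HFD_STZ_control_FMT. It was at 143, 152 and 131 RPKM in HFD_STZ_AOS, against 134, 129 and 129 RPKM in HFD_STZ. AOS libraries gave 119, 135 and 131 RPKM, against 131, 139 and 143 RPKM in control. Of the HFD_STZ_AOS libraries 2 of 3 stood above all of HFD_STZ, and AOS and control overlapped. Spesp1, a protein of the equatorial segment where fusion starts, was the least abundant of the group. Spesp1 was at 128, 116 and 116 RPKM in HFD_STZ_AOS_FMT and 116, 121 and 114 RPKM in HFD_STZ_control_FMT. It was at 118, 113 and 102 RPKM in HFD_STZ_AOS, against 115, 114 and 113 RPKM in HFD_STZ. In AOS it was at 118, 114 and 114 RPKM, against 118, 115 and 116 RPKM in control. HFD_STZ lay wholly below HFD_STZ_AOS_FMT and control, the other pairs compared overlapped, and HFD_STZ_AOS replicate 3 was its lowest library. Spaca1, a membrane protein without which mouse sperm form no proper acrosome, averaged 162 RPKM, and Spaca4, a surface protein that binds the zona, 159 RPKM.

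Another 10 genes act in egg binding and fusion on the sperm membrane. Izumo1 is the fusion protein that binds JUNO on the egg, and Izumo2, Izumo3 and Izumo4 are its relatives. Izumo2 (chr7:44708742-44719844, plus strand) was at 186, 153 and 154 RPKM in HFD_STZ_AOS_FMT and 167, 151 and 169 RPKM in HFD_STZ_control_FMT. It was at 162, 166 and 147 RPKM in HFD_STZ_AOS, against 136, 132 and 146 RPKM in HFD_STZ. AOS testes were at 160.0, 152 and 161 RPKM, against 138, 133 and 144 RPKM in control. Every library of the 4 groups given AOS or a transfer was above every library of HFD_STZ and control. That split was no planned comparison and its share over all tested genes was not counted, so no result is drawn from it. In the main effect of AOS, 6 libraries against 6, 1.16% of tested genes lay wholly higher, Izumo2 among them. That main effect on Izumo2, 0.19 ± 0.05 in log2(RPKM + 1) (estimate and SE, adjusted p = 0.0525) (limma, Benjamini-Hochberg), missed the threshold. Izumo2 was at 158 ± 7.21 RPKM with AOS against 138 ± 5.95 RPKM without (SD, n = 6 each). With the length trend removed the main effect was 0.06 (adjusted p = 0.464). Izumo1 averaged 68.9 RPKM, Izumo3 88.8 RPKM and Izumo4 103 RPKM, and an exon of Izumo1 overlaps Rasip1 on the same strand.

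The ADAM proteins, membrane proteins with a disintegrin domain, take part in passage through the oviduct and in zona binding. Adam1b, a partner of Adam2 in the fertilin complex of the mouse, was at 52.4, 58.2 and 58.6 RPKM in HFD_STZ_AOS_FMT and 54.7, 59.0 and 56.2 RPKM in HFD_STZ_control_FMT. It was at 54.5, 52.4 and 49.2 RPKM in HFD_STZ_AOS, against 58.7, 56.6 and 57.3 RPKM in HFD_STZ. The AOS libraries held 54.5, 58.4 and 56.1 RPKM of Adam1b, against 61.8, 64.6 and 57.5 RPKM in control. HFD_STZ_AOS lay wholly below HFD_STZ. Adam1a is a close copy of Adam1b, so reads between them may have been split in counting. Adam5 was at 548, 568 and 542 RPKM in HFD_STZ_AOS_FMT and 524, 524 and 548 RPKM in HFD_STZ_control_FMT. It was at 529, 536 and 547 RPKM in HFD_STZ_AOS, against 555, 542 and 548 RPKM in HFD_STZ. Its AOS values were 506, 546 and 520.0 RPKM, against 588, 598 and 524 RPKM in control. In control 2 of 3 libraries were above all the rest of the series and the remaining one was among the AOS values. Adam3, needed for sperm to enter the oviduct, averaged 508 RPKM and Adam2 averaged 118 RPKM.

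Tex101, a surface protein needed for ADAM3 to mature, and Crisp2, a cysteine-rich protein of the acrosome and tail, complete this group. Tex101 was at 181, 166 and 151 RPKM in HFD_STZ_AOS_FMT and 166, 144 and 159 RPKM in HFD_STZ_control_FMT. It was at 153, 159.7 and 153 RPKM in HFD_STZ_AOS, against 162, 154 and 147 RPKM in HFD_STZ. AOS libraries were at 152, 144 and 152 RPKM, against 155, 155 and 158 RPKM in control. Its AOS libraries were all below its control ones, and the other pairs overlapped. Crisp2, the most abundant of the 38, was at 1991, 1904 and 1767 RPKM in HFD_STZ_AOS_FMT and 1932, 1853 and 1819 RPKM in HFD_STZ_control_FMT. It was at 1866, 1992 and 1797 RPKM in HFD_STZ_AOS, against 1748, 1836 and 1828 RPKM in HFD_STZ. AOS testes held 1716, 1972 and 1811 RPKM, against 1909, 1973 and 1780.5 RPKM in control. Crisp2 overlapped in each of these pairs.

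The 3 chaperones fold sperm membrane proteins in the endoplasmic reticulum, and loss of each in mice disturbs ADAM3. Clgn, calmegin (chr8:83389867-83428552, plus strand), was at 240.4, 251 and 248 RPKM in HFD_STZ_AOS_FMT and 234, 232 and 229 RPKM in HFD_STZ_control_FMT. It was at 233, 223 and 199.6 RPKM in HFD_STZ_AOS, against 246, 241 and 234 RPKM in HFD_STZ. AOS testes had 239, 239.5 and 233 RPKM of it, against 266, 261 and 243 RPKM in control. HFD_STZ_AOS lay below HFD_STZ, and AOS below control, in every library. The main effect of AOS on Clgn was -0.13 ± 0.03 in log2(RPKM + 1) (estimate and SE, adjusted p = 0.0591) and that of HFD_STZ -0.11 ± 0.03 in log2(RPKM + 1) (estimate and SE, adjusted p = 0.0979) (limma, Benjamini-Hochberg), neither past the threshold. Calr3, calsperin, was at 95.8, 90.4 and 89.5 RPKM in HFD_STZ_AOS_FMT and 97.1, 84.7 and 99.9 RPKM in HFD_STZ_control_FMT. It was at 92.3, 97.1 and 86.0 RPKM in HFD_STZ_AOS, against 80.4, 88.3 and 85.3 RPKM in HFD_STZ. For AOS it was at 93.7, 98.6 and 92.5 RPKM, against 86.8, 90.3 and 94.0 RPKM in control. HFD_STZ_AOS_FMT lay above HFD_STZ in every library of Calr3, the other pairs compared overlapped, and Pdilt averaged 108 RPKM.

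A further 6 genes belong to the perinuclear theca and the cytoskeleton beneath the acrosome. Actl7b, a testis actin-like protein, was the most abundant, at 450.3, 413 and 377 RPKM in HFD_STZ_AOS_FMT and 433, 429 and 420.2 RPKM in HFD_STZ_control_FMT. It was at 424, 438 and 403 RPKM in HFD_STZ_AOS, against 408, 383 and 405 RPKM in HFD_STZ. AOS libraries had 453, 409 and 428 RPKM of Actl7b, against 399, 389 and 431 RPKM in control. HFD_STZ_control_FMT lay wholly above HFD_STZ for Actl7b, and the other pairs compared overlapped. Cylc1, a cylicin of the calyx encoded on the X chromosome, was at 93.1, 93.0 and 91.7 RPKM in HFD_STZ_AOS_FMT and 87.0, 76.0 and 86.9 RPKM in HFD_STZ_control_FMT. It was at 91.2, 85.2 and 84.1 RPKM in HFD_STZ_AOS, against 93.9, 96.6 and 91.0 RPKM in HFD_STZ. In AOS testes it was at 87.4, 84.6 and 84.4 RPKM, against 89.1, 90.4 and 89.4 RPKM in control. HFD_STZ_control_FMT was the lowest group, its 3 libraries below all 3 of HFD_STZ_AOS_FMT and all 3 of HFD_STZ. Cylc2, the other cylicin, averaged 137 RPKM, the actin-like Actl7a and Actl9 309 and 289 RPKM, and Capza3, a testis actin-capping subunit, 196 RPKM.

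The last group holds Dpy19l2, a protein of the inner nuclear membrane that anchors the acrosome, Spata16, a Golgi protein of acrosome formation, and Sun5, which is now known mainly for coupling the head to the tail. Dpy19l2 (chr9:24557047-24696293, minus strand) was at 72.7, 76.1 and 79.2 RPKM in HFD_STZ_AOS_FMT and 76.0, 84.5 and 79.1 RPKM in HFD_STZ_control_FMT. It was at 76.6, 73.5 and 76.2 RPKM in HFD_STZ_AOS, against 87.3, 84.4 and 81.6 RPKM in HFD_STZ. AOS gave 71.3, 78.5 and 74.6 RPKM of Dpy19l2, against 85.0, 89.5 and 78.9 RPKM in control. All 6 libraries of the AOS and HFD_STZ_AOS groups were below all 6 of the control and HFD_STZ groups, as in 2.10% of all tested genes. Dpy19l2 was at 75.1 ± 2.54 RPKM with AOS, against 84.4 ± 3.81 RPKM without (SD, n = 6 each). It fell with AOS by the main effect, -0.17 ± 0.04 in log2(RPKM + 1) (estimate and SE, adjusted p = 0.0409) (limma, Benjamini-Hochberg). Dpy19l2 was the only one of the 38 to pass there (2.63%), while 2.34% of all tested genes passed, 1.05% lower and 1.30% higher. Leaving out any one of 8 of the 12 libraries ended the call (adjusted p up to 0.105), as did median-ratio scaling (log2 difference -0.15, adjusted p = 0.0556), testing without the low-value filter (-0.17, adjusted p = 0.0512) and removal of the trend on transcript length (-0.13, adjusted p = 0.104), while the difference itself stayed between -0.19 and -0.13 under all alternatives run. Spata16 was at 176, 179 and 174 RPKM in HFD_STZ_AOS_FMT and 169, 172 and 170.0 RPKM in HFD_STZ_control_FMT. It was at 175, 169.7 and 159 RPKM in HFD_STZ_AOS, against 180.0, 171 and 171 RPKM in HFD_STZ. AOS libraries showed 176, 182 and 176 RPKM, against 182, 182 and 169.7 RPKM in control. Spata16 was among the steadiest, with HFD_STZ_AOS replicate 3 its lowest library, and Sun5 averaged 133 RPKM.

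**Figure D2:**
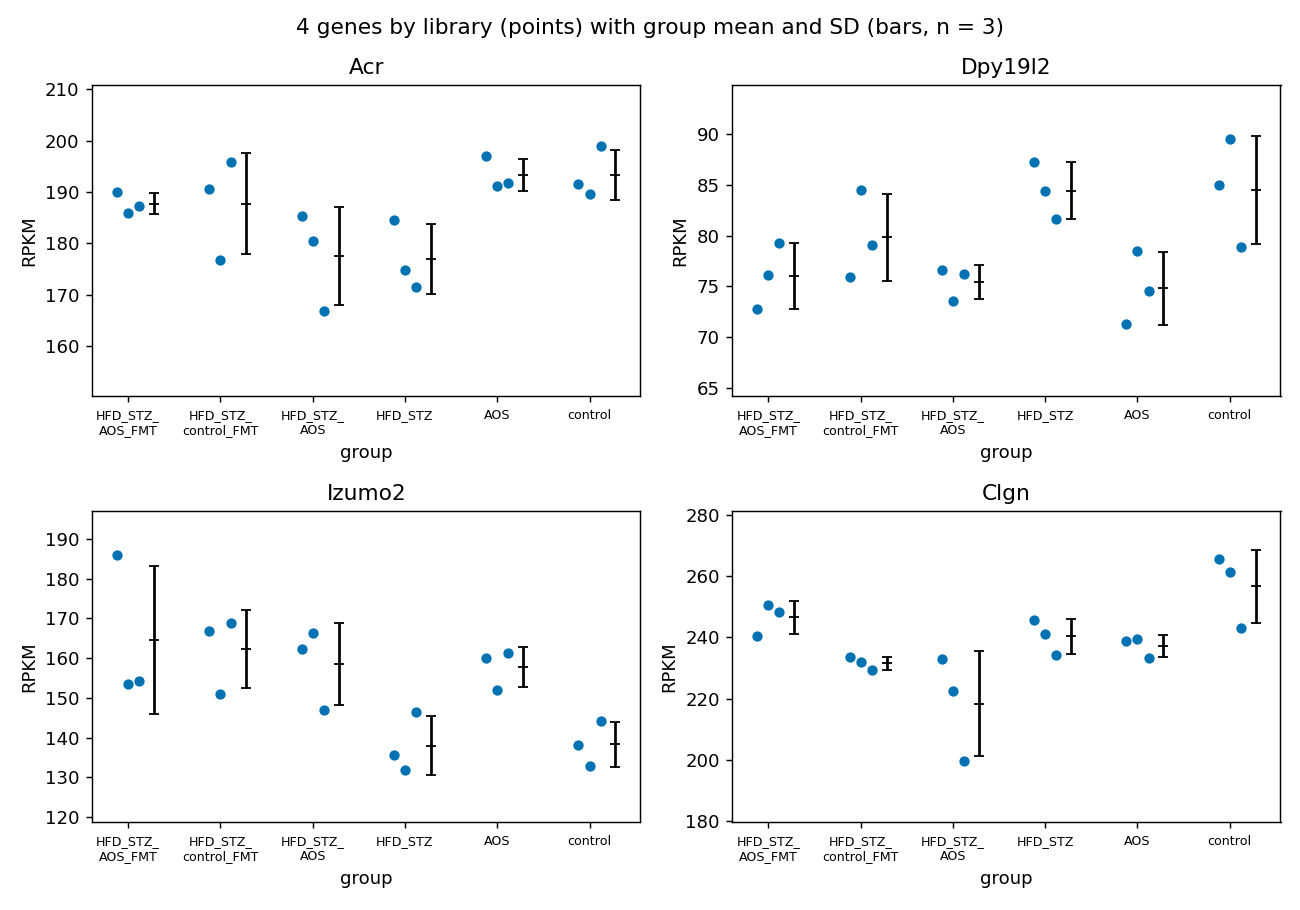
RPKM of Acr, Dpy19l2, Izumo2 and Clgn in each library (points, replicates 1 to 3 from left to right) with group mean and SD (bars, n = 3), on axes that do not start at 0. Acr is lowest in HFD_STZ_AOS and HFD_STZ, Dpy19l2 is lower in AOS and HFD_STZ_AOS than in HFD_STZ and control, and Izumo2 is lowest in HFD_STZ and control.

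The diet with STZ was the first comparison, HFD_STZ against control, and none of the 38 genes passed the threshold. Adjusted over all tested genes, 0 of 13874 passed in limma (0%), while at an unadjusted p under 0.05 6.16% of tested genes were higher and 2.13% lower. Of the 38, 0 were higher and 1 lower at that level. The lower gene was Acr (log2 difference -0.13 ± 0.05, limma adjusted p = 0.454), followed by Clgn (log2 difference -0.09 ± 0.05, limma adjusted p = 0.636) and Adam1b (log2 difference -0.09 ± 0.05, limma adjusted p = 0.707). In sign, 8 of the 38 differences were above 0 and 30 below, with a median of -0.03 against 0.02 for all tested genes, of which 59.5% were above 0. By role, all 5 membrane genes, all 3 chaperones and 9 of 10 binding and fusion genes were below 0, as were 8 of 11 matrix genes and 4 of 6 theca genes, while 2 of the 3 anchoring and shaping genes were above 0. Of the 38, 1 lay wholly above and 5 wholly below control, against 11.7% and 4.53% of tested genes. The 95% intervals of the 38 differences lay between -0.29 and 0.22 in log2. With the libraries scaled by median ratios 2 were above 0 and 36 below.

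AOS alone was compared with the same control libraries. None of the 38 passed, nor did any tested gene (0%). At an unadjusted p under 0.05, 4 of the 38 were higher (5.46% of tested genes) and 4 lower (8.4% of tested genes). The higher ones were Izumo2 (log2 difference 0.19 ± 0.07, limma adjusted p = 0.276), Acrbp, Dkkl1 and Sun5. The lower ones were Dpy19l2 (log2 difference -0.17 ± 0.05, limma adjusted p = 0.217), Adam5 (log2 difference -0.12 ± 0.05, limma adjusted p = 0.283), Adam1b and Clgn. The signs were nearly balanced, with 17 above and 21 below 0, while 40.2% of all tested genes were above 0. The median was -0.02, against -0.03 for all tested genes, and median-ratio scaling turned the median of the 38 to 0.01. AOS lay wholly above control for 7 of the 38 and wholly below for 4, against 7.76% and 14.8% of tested genes. The 95% intervals lay between -0.29 and 0.36.

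HFD_STZ_AOS was set against HFD_STZ, which asks what AOS did in mice on the diet and STZ. No tested gene passed (0%). At an unadjusted p under 0.05, 3 of the 38 were higher (6.23% of tested genes) and 4 lower (6.26% of tested genes). Spaca3 (log2 difference 0.22 ± 0.07, limma adjusted p = 0.229), Izumo2 and Dkkl1 were the higher ones. Dpy19l2 (log2 difference -0.16 ± 0.05, limma adjusted p = 0.252), Clgn (log2 difference -0.14 ± 0.05, limma adjusted p = 0.267), Adam1b and Cylc1 were the lower ones. Of the 38 differences 26 were above 0 and 12 below, while 47.7% of all tested genes were above 0. Their median was 0.05 against -0.01 for all tested genes. The median was 0.08, with 29 above 0, without HFD_STZ_AOS replicate 3, and -0.01 without HFD_STZ_AOS replicate 2. HFD_STZ_AOS lay wholly above HFD_STZ for 3 of the 38 and wholly below for 4, against 7.37% and 9.80% of tested genes. Intervals lay between -0.35 and 0.36.

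The transfers were compared with the HFD_STZ libraries used above, so their values are set side by side and no agreement between them is drawn. HFD_STZ_AOS_FMT against HFD_STZ gave 0 of 38 past the threshold, while 0.0144% of tested genes passed. Without adjustment, 7 of the 38 had a p under 0.05 and were higher (6.31% of tested genes) and 1 was lower (8.14% of tested genes). The higher ones were Izumo2 (log2 difference 0.25 ± 0.07, limma adjusted p = 0.216), Dkkl1 (log2 difference 0.18 ± 0.06, limma adjusted p = 0.219), Spaca3 (log2 difference 0.19 ± 0.07, limma adjusted p = 0.243), Spaca4, Spink2, Izumo3 and Lyzl4, and the lower one was Dpy19l2. In all, 34 of the 38 differences were above 0, while 43.7% of all tested genes were. Their median was 0.07 against -0.02 for all tested genes. All 11 matrix genes, all 5 membrane genes and all 3 chaperones were above 0. The median was 0.02, with 27 above 0, without HFD_STZ_AOS_FMT replicate 1. Groups did not overlap for 10 higher and 1 lower of the 38, against 7.82% and 11.6% of tested genes. The intervals lay between -0.26 and 0.40.

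HFD_STZ_control_FMT against HFD_STZ also gave 0 of 38 past the threshold, while 0.00721% of tested genes passed. Before adjustment, 6 of the 38 with a p under 0.05 were higher (6.06% of tested genes) and 1 lower (10.1% of tested genes). Dkkl1 (log2 difference 0.19 ± 0.06, limma adjusted p = 0.150), Spaca3 (log2 difference 0.22 ± 0.07, limma adjusted p = 0.155), Izumo2, Spaca4, Calr3 and Lyzl4 were higher, and Cylc1 (log2 difference -0.17 ± 0.05, limma adjusted p = 0.137) was lower. Of the 38 differences 26 were above 0, while 41.1% of all tested genes were. Their median was 0.04 against -0.03 for all tested genes. The median was 0.02 without HFD_STZ_control_FMT replicate 1, 0.08 without HFD_STZ_control_FMT replicate 2, and 0.07, with 32 above 0, under median-ratio scaling. HFD_STZ_control_FMT lay wholly above HFD_STZ for 7 of the 38 and wholly below for 2, against 8.001% and 16.04% of tested genes. The intervals lay between -0.27 and 0.38.

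**Figure D3:**
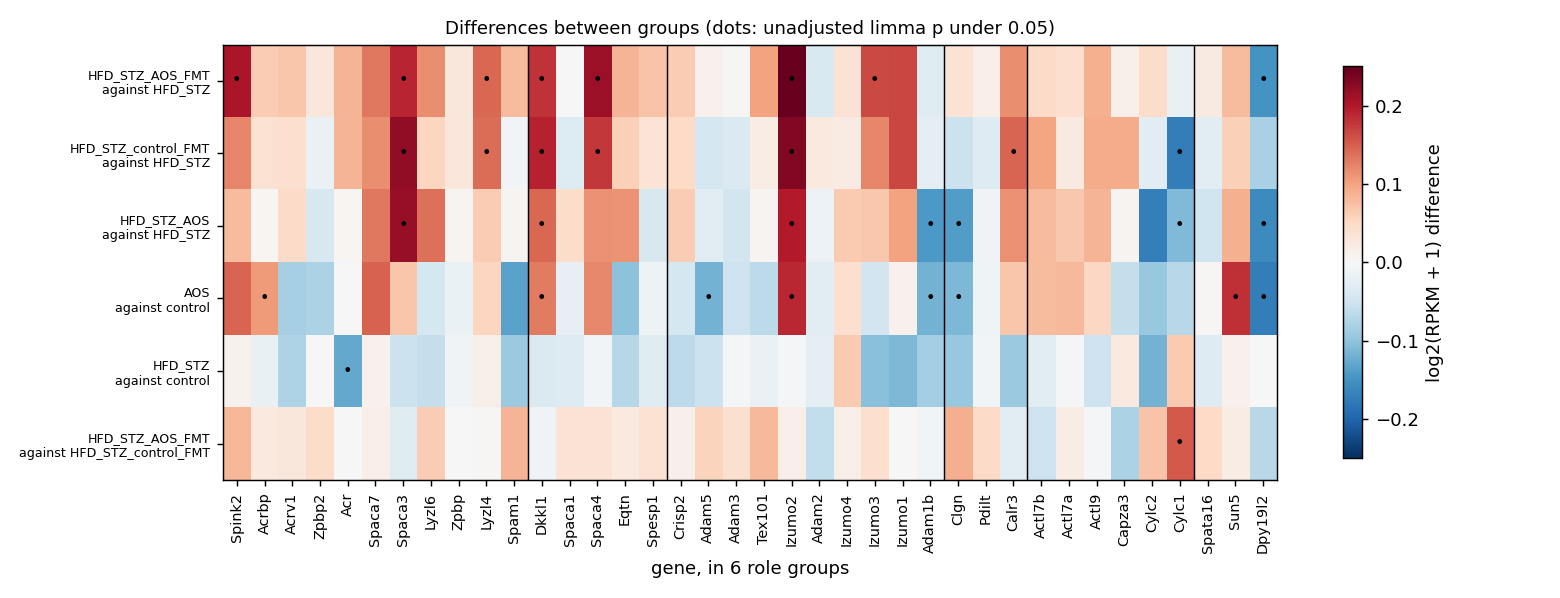
Differences in log2(RPKM + 1) of the 38 genes (columns, in 6 role groups separated by lines) in 6 comparisons (rows), red above 0 and blue below, with a dot where the unadjusted limma p was under 0.05. The 3 upper rows share the HFD_STZ libraries and are mostly red, the HFD_STZ row is mostly pale blue, and no dot in these rows passed adjustment.

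The transfers were tested against each other directly, HFD_STZ_AOS_FMT against HFD_STZ_control_FMT. None of the 38 passed, while 0.0216% of tested genes did. At an unadjusted p under 0.05 1 of the 38 was higher (2.92% of tested genes) and 0 were lower (1.66% of tested genes). That gene was Cylc1 (log2 difference 0.15 ± 0.05, limma adjusted p = 0.999), followed by Clgn at a log2 difference of 0.09 and Tex101 at 0.08. The 38 differences had a median of 0.02 against 0.01 for all tested genes, with 28 above 0, against 53.9% of all tested genes. Their intervals lay between -0.26 and 0.26. The transfer groups did not overlap for 3 higher and 0 lower of the 38, against 5.15% and 3.27% of tested genes. Without HFD_STZ_AOS_FMT replicate 1 only 11 of the 38 differences were above 0 and the median was -0.02.

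Whether AOS acted differently with and without the diet and STZ was tested by their interaction. None of the 38 and no tested gene passed (0%), and at an unadjusted p under 0.05 0 of the 38 were higher (2.88% of tested genes) and 0 lower (1.74% of tested genes). The nearest were Eqtn (log2 difference 0.21 ± 0.12, limma adjusted p = 0.999), Acrbp at -0.10 and Lyzl6 at 0.18. Intervals of the interaction were wide, between -0.35 and 0.46. The median was 0.01 against 0.02 for all tested genes, with 26 of the 38 and 56.4% of all tested genes above 0. It was -0.01 with median-ratio scaling and with the length trend removed, 0.05 without HFD_STZ_AOS replicate 3, and 0.06, with 34 above 0, without the 4 libraries high in Crisp1.

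With 6 libraries on each side, the main effects had a smaller error. In the main effect of HFD_STZ, 0 of the 38 were higher at an unadjusted p under 0.05 (14.3% of tested genes) and 5 were lower (4.42% of tested genes): Acr, Clgn, Cylc2, Adam1b and Acrbp. In sign 14 were above 0 and 24 below, while 64.7% of all tested genes were above 0. Their median was -0.01 against 0.03 for all tested genes. Median-ratio scaling gave 3 above 0 and 35 below, while without the 4 libraries high in Crisp1 21 were above 0 and the median was 0.01. The main effect of AOS had a median of 0.01 against -0.02 for all tested genes, with 21 of the 38 and 43.0% of all tested genes above 0. That median ran from -0.02 without HFD_STZ_AOS replicate 2 to 0.03 without HFD_STZ_AOS replicate 3, and was 0.05, with 25 above 0, without the 4 libraries high in Crisp1. In that effect 6 of the 38 were higher at an unadjusted p under 0.05 (8.59% of tested genes) and 6 lower (12.1% of tested genes). The higher ones were Izumo2, Dkkl1, Spaca3, Sun5, Spaca4 and Calr3, and the lower ones were Dpy19l2, Clgn, Adam1b, Cylc1, Adam5 and Cylc2. The F test among the 6 groups passed for 0 of the 38, while 0.0432% of tested genes passed. At an unadjusted p under 0.05 8 of the 38 differed (21.1%), the same share as of all tested genes, 21.1%, with Clgn nearest (adjusted p 0.104).

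The differences of the 38 genes ran with the length of their transcripts, taken as the longest coding transcript, from 632 bases in Izumo2 to 4248 in Zpbp. In HFD_STZ_AOS_FMT against HFD_STZ, Spearman's rho between difference and length was -0.71 over the 38 genes and -0.40 over 13578 tested genes with a length. It was -0.69 in HFD_STZ_control_FMT against HFD_STZ (-0.36 over all), -0.77 in HFD_STZ_AOS against HFD_STZ (-0.38 over all) and -0.56 in AOS against control (-0.30 over all). In HFD_STZ against control it was -0.21 (-0.02 over all), and between the transfers 0.04 (-0.03 over all). These are descriptions across genes of the same libraries, the first 3 share the HFD_STZ libraries, and genes are not independent replicates.

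The 19 genes with transcripts up to 1493 bases were all above 0 in HFD_STZ_AOS against HFD_STZ, with a median of 0.09, against 7 of the 19 longer ones and a median of -0.03. In HFD_STZ_AOS_FMT against HFD_STZ all 19 shorter ones and 15 of the 19 longer ones were above 0, with medians of 0.12 and 0.03. In HFD_STZ_control_FMT against HFD_STZ 18 shorter and 8 longer ones were above 0, with medians of 0.10 and -0.02. All tested genes with a length were split in the same direction at 1493 bases. Their medians, shorter then longer, were 0.09 and -0.02 in HFD_STZ_AOS against HFD_STZ. They were 0.08 and -0.04 for HFD_STZ_AOS_FMT and 0.07 and -0.04 for HFD_STZ_control_FMT, so the split was not particular to the 38. After each library's trend on length over all genes was removed, HFD_STZ_AOS against HFD_STZ had 15 of 38 above 0 and a median of -0.02, the main effect of AOS a median of -0.02 in place of 0.01, and HFD_STZ_AOS_FMT against HFD_STZ 30 of 38 above 0 and a median of 0.03. HFD_STZ_control_FMT against HFD_STZ then had a median of 0.01 in place of 0.04. The same removal moved the comparisons of the diet with STZ further below 0, to 36 of 38 below and a median of -0.05 in HFD_STZ against control, and 35 of 38 below and a median of -0.05 in the main effect of HFD_STZ. Izumo2 (632 bases), Spaca3 (947) and Dkkl1 (1149) stood at the short end, and Dpy19l2 (3442), Adam1b (3338) and Clgn (3902) at the long end. What gives rise to this relation with length was not tested.

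**Figure D4:**
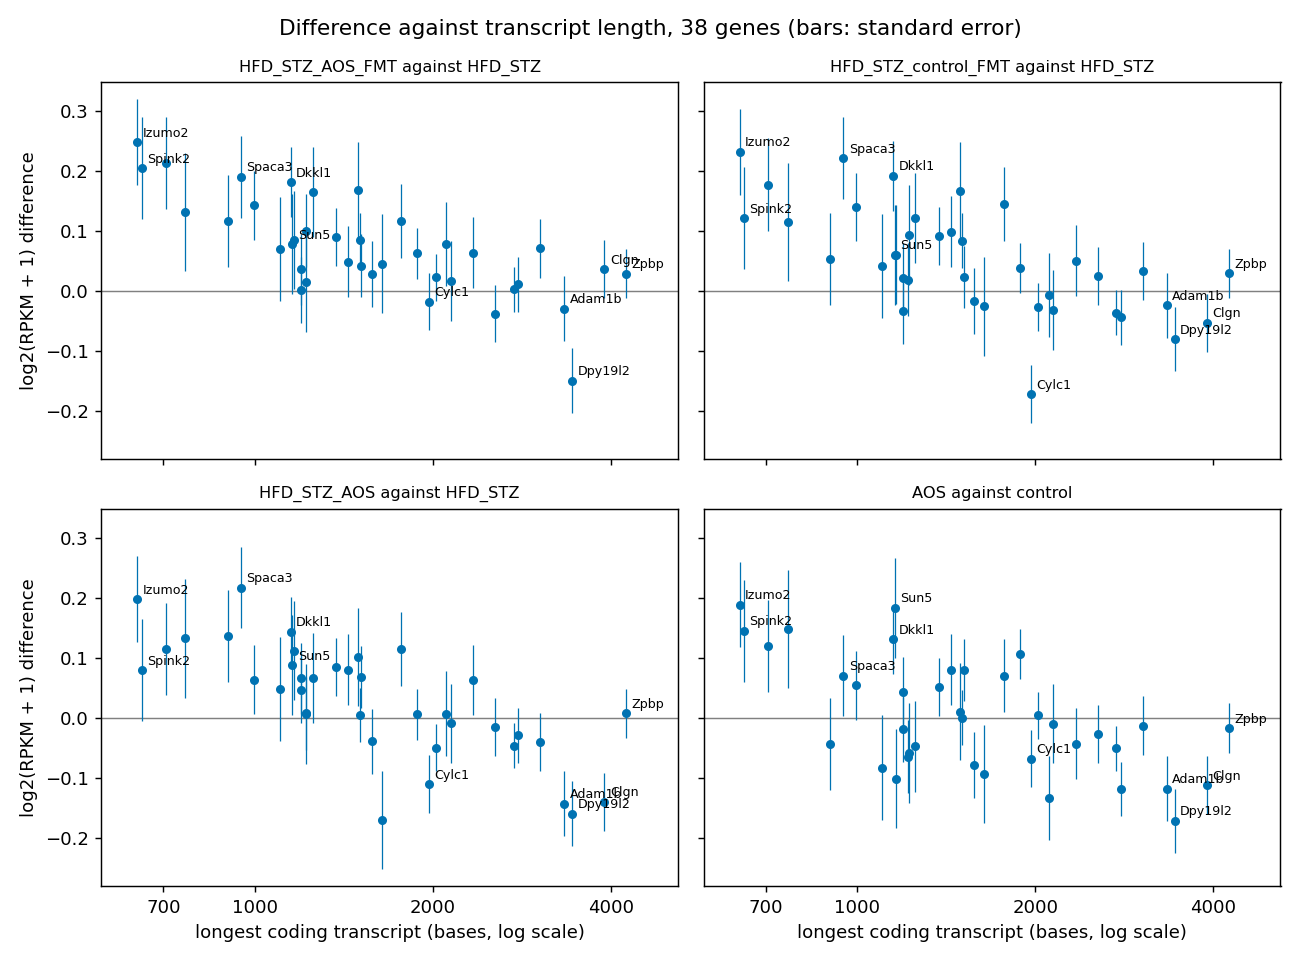
Difference in log2(RPKM + 1) with its standard error (bars) against the longest coding transcript in bases (log scale) for the 38 genes in 4 comparisons. Izumo2, the shortest, lies above 0 and Dpy19l2, a long one, below 0 in all 4 panels.

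In single libraries many of the 38 genes deviated together. In HFD_STZ_AOS_FMT replicate 1, 35 of the 38 genes were above their own 18-library mean, and in HFD_STZ_AOS replicate 3 only 3 were. HFD_STZ_AOS replicate 3 was 1 of the 4 libraries high in Crisp1. The others of these had 17 (HFD_STZ_AOS_FMT replicate 3), 14 (HFD_STZ_control_FMT replicate 2) and 21 (control replicate 3) above. The part of Crisp1-rich tissue in this was not tested. The mean of the 19 shorter genes minus that of the 19 longer ones, each as a deviation from the 18-library mean in log2, ran from -0.05 to 0.14 in HFD_STZ_AOS_FMT, -0.01 to 0.10 in HFD_STZ_control_FMT, 0.02 to 0.11 in HFD_STZ_AOS, -0.09 to -0.04 in HFD_STZ, -0.02 to 0.02 in AOS and -0.10 to -0.04 in control. HFD_STZ and control libraries thus lay below all those of HFD_STZ_AOS, AOS and HFD_STZ_control_FMT. Within groups, pairs of shorter genes varied together with a median correlation of 0.60 (171 pairs), pairs of longer genes with 0.21, and mixed pairs with 0.30. The closest pair was Spaca7 and Sun5 at 0.94, and the most opposed was Izumo2 and Dpy19l2 at -0.72, both over 18 libraries that share these library-wide shifts.

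The 12 round spermatid markers summed to 6318 to 7125 RPKM in HFD_STZ_AOS_FMT, 6323 to 6824 in HFD_STZ_control_FMT, 6210 to 6585 in HFD_STZ_AOS, 5870 to 6232 in HFD_STZ, 6560 to 6738 in AOS and 6013 to 6326 in control. The 12 elongating spermatid markers summed to 59652 to 70608 RPKM in HFD_STZ_AOS_FMT, 60079 to 65848 in HFD_STZ_control_FMT, 61193 to 69442 in HFD_STZ_AOS, 54925 to 60756 in HFD_STZ, 65094 to 66755 in AOS and 53663 to 60095 in control. HFD_STZ lay below AOS and both transfer groups in the round spermatid sum, and below AOS and HFD_STZ_AOS in the elongating spermatid sum, in every library. AOS lay above control in both sums in every library. These sums weigh abundant genes most. Meig1 averaged 2357 RPKM of a mean round spermatid sum of 6408 RPKM. Prm1, Tnp2, Prm2 and Tnp1 averaged 14713, 14118, 12607 and 7310 RPKM of a mean elongating spermatid sum of 61886 RPKM. HFD_STZ held the lowest group mean of 14 of the 38 genes and the highest of 1. AOS held the lowest of 10 and the highest of 8, and control the lowest of 5 and the highest of 9. For HFD_STZ_AOS_FMT these counts were 1 and 10, for HFD_STZ_control_FMT 3 and 6, and for HFD_STZ_AOS 5 and 4. The shares over all tested genes were not counted and the 38 vary together, so no result about the 38 is drawn from these counts.

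Markers of other cells also differed. The 5 erythroid markers summed to 81.6 to 110.3 RPKM in HFD_STZ_AOS_FMT and 129.8 to 144 RPKM in HFD_STZ_control_FMT, 108 to 175 RPKM in HFD_STZ_AOS, against 152 to 211 RPKM in HFD_STZ, and to 66.4 to 98.8 RPKM in AOS, against 99.8 to 141 RPKM in control. Hba-a1, an alpha globin gene, made up most of this sum, and Hba-a2, Hbb-bs and Hbb-bt were at 0 in at least 1 library. HFD_STZ was thus above control and both transfer groups, AOS below control, and HFD_STZ_AOS_FMT below HFD_STZ_control_FMT, in every library. The 7 Leydig markers summed to 2566 to 3501 RPKM in AOS, against 3510.0 to 4032 RPKM in control, with no overlap. The 10 Sertoli markers summed to 906 to 930.3 RPKM in HFD_STZ, against 813 to 896 RPKM in control, and the 8 spermatogonial ones to 59.1 to 63.8 RPKM, against 52.1 to 58.0 RPKM, both without overlap. In the other pairs compared these 3 sums overlapped, as did those of the 11 spermatocyte, 4 peritubular and 7 macrophage markers in each pair. Few genes carry these 3 sums, so they do not show a shift of every marker. Insl3 averaged 3189 RPKM of a mean Leydig sum of 3769 RPKM. Clu and Defb19 averaged 507 and 275 RPKM of a Sertoli sum of 906 RPKM, and Uchl1 28.4 RPKM of a spermatogonial sum of 58.3 RPKM. The part of these markers in the differences above was not tested.

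**Figure D5:**
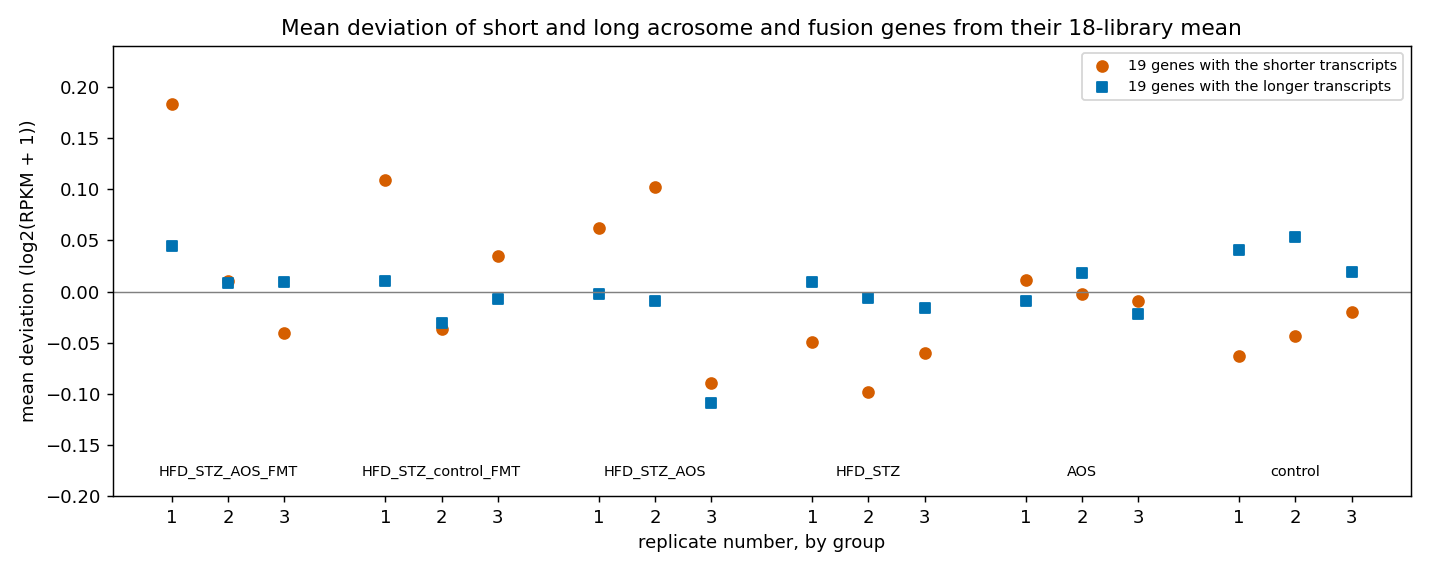
Mean deviation of the 19 genes with shorter transcripts (orange circles) and the 19 with longer ones (blue squares) from their 18-library mean, in log2(RPKM + 1), for each library. In all HFD_STZ and control libraries the orange circles lie below the blue squares, the highest orange circle is that of HFD_STZ_AOS_FMT replicate 1 and the lowest blue square that of HFD_STZ_AOS replicate 3.

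A second list of 71 acrosome and fertilization genes was read beside the 38, of which 69 were in the table and 65 were tested. In the main effect of HFD_STZ 2 of 65 passed, both higher, while 2.40% of tested genes passed higher. They were Csnk2a2, a kinase subunit needed for a normal sperm head in mice (log2 difference 0.12 ± 0.03, adjusted p = 0.0257), and Adam4 (0.17 ± 0.04, adjusted p = 0.0393). In the main effect of AOS 3 of 65 passed higher (1.30% of tested genes) and 1 lower (1.05% of tested genes). Prss55, a testis serine protease needed for ADAM3 to mature (0.18 ± 0.04, adjusted p = 0.0363), Spaca9 (0.23 ± 0.05, adjusted p = 0.0409) and Tmem190 (0.17 ± 0.04, adjusted p = 0.0415) rose, and Ssh2, a cofilin phosphatase (-0.21 ± 0.05, adjusted p = 0.0469), fell (all by limma with Benjamini-Hochberg adjustment over all tested genes). None of these 6 calls held in all alternatives. Each of the 6 ended with the length trend removed, where Tmem190 was at 0.04, Prss55 at 0.11, Spaca9 at 0.11 and Ssh2 at -0.14. Leaving out 1 library ended the call of Ssh2 and of Tmem190 in 11 of 12 cases, of Prss55 and Adam4 in 10, of Spaca9 in 9 and of Csnk2a2 in 7. In the other comparisons 0 of the 65 passed. At an unadjusted p under 0.05 5 were then higher (6.16% of tested genes) and 1 lower (2.13%) in HFD_STZ against control, 6 (5.46%) and 7 (8.4%) in AOS against control, and 9 (6.23%) and 4 (6.26%) in HFD_STZ_AOS against HFD_STZ. These counts were 6 (6.31%) and 6 (8.14%) in HFD_STZ_AOS_FMT against HFD_STZ and 4 (6.06%) and 7 (10.1%) in HFD_STZ_control_FMT against HFD_STZ. They were 3 (2.92%) and 1 (1.66%) between the transfers, and 0 (2.88%) and 2 (1.74%) in the interaction. The nearest to passing were Spaca9 in AOS against control (0.28 ± 0.07, adjusted p = 0.171), Smap2 in HFD_STZ_AOS_FMT against HFD_STZ (-0.24 ± 0.06, adjusted p = 0.198) and Agfg1, which acts in fusion of vesicles into the acrosome (-0.18 ± 0.05, adjusted p = 0.125), in HFD_STZ_control_FMT against HFD_STZ.

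The 38 genes lie on 14 chromosomes, 1 of them on the X chromosome, and 6 consist of a single exon. Exons of 8 of them overlap those of another annotated gene, Acrbp, Spaca7, Zpbp, Izumo1, Adam3, Actl7b, Capza3 and Pdilt, and the use of strand in counting was not given in the sources used here, so reads of these pairs may be shared.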

How the data were processed

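Testis RNA of 18 samples, 3 in each of 6 groups named by the labels, was sequenced. RNA was isolated from frozen testes with Trizol and columns, and standard Illumina library preparation followed, per the labels' protocols. Bowtie 0.12.2 and mm10 are named in processing notes by the submitters. The counting tool, annotation and use of strand are not given in the sources used here. A single table deposited by the authors holds the RPKM of each symbol in each sample. RPKM divides by gene length and library total, so a shift in a few very abundant transcripts moves all others, as does a change in how well long ones were recovered. Reads per library were not recovered from the steps between low values, so no counting interval is given.

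Of 20985 rows, the 3 symbols on 6 rows were left out. Values were taken as log2(RPKM + 1), a scale that shrinks the change of low genes, and 13874 genes, those at 1 RPKM or more in 3 or more libraries, entered the tests. limma 3.58.1 in R 4.3.3 was used with its trend option, 1 coefficient per group, 12 residual and 3.71 prior degrees of freedom, two-sided tests and Benjamini-Hochberg adjustment over all tested genes within a comparison, at a threshold of 0.05. There were 10 comparisons. Genes are given in full where called, among the 3 smallest p of a comparison, or highest or lowest in level in a role group. Genes of the second list are named where called or among the nearest to passing. The genes, lists and tests were chosen with earlier results of these data known. Lengths (of 97.9% of tested genes) and coordinates came from GENCODE vM21 (GRCm38), promoter windows from RefSeq. Alternatives were median-ratio scaling, no filter, a 0.1 pseudocount, fitting only the groups compared, robust empirical Bayes, a block for the replicate number, subtraction of a lowess curve on transcript length per library (span 0.3), omission of each library and, chosen after seeing the data, omission of the 4 libraries above 100 RPKM of Crisp1. Python 3.11.15, numpy 2.4.6, pandas 2.3.3 and matplotlib 3.10.9 were also used.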

Additional observations from a re-analysis of the deposited data

How the results depend on the processing

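None of the alternatives gave a difference of the opposite sign that passed the threshold. In the 6 comparisons of 2 groups, in the interaction and in the F test, 0 of the 38 genes passed under each alternative run. Counts over all tested genes moved where few genes passed. Without the filter on low values 1 gene passed in HFD_STZ_AOS against HFD_STZ, 16 in HFD_STZ_AOS_FMT against HFD_STZ, 4 in HFD_STZ_control_FMT against HFD_STZ, 11 between the transfers and 18 in the F test. Fitting only the groups compared gave 1, 0 and 6 for HFD_STZ_AOS_FMT and HFD_STZ_control_FMT against HFD_STZ and between the transfers. A pseudocount of 0.1 gave 4 in HFD_STZ_AOS_FMT against HFD_STZ, robust empirical Bayes 11 in the F test, and omission of the libraries high in Crisp1 2 in HFD_STZ_AOS against HFD_STZ.

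In the main effect of HFD_STZ 396 genes passed, against 259 with median-ratio scaling, 205 with no filter, 36 without the libraries high in Crisp1 and 133 when only the groups compared were fitted. The last 3 left 0 of the 38. In the main effect of AOS 325 genes passed, against 200 with median-ratio scaling, 142 with no filter and 0 with the length trend removed, each with 0 of the 38. Without the libraries high in Crisp1 76 genes and 2 of the 38 (Spaca4 and Dpy19l2) passed, and with only the groups compared 565 genes and 3 of the 38 (Izumo2, Dkkl1 and Dpy19l2). The cause of these moves was not tested.

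Leaving out 1 library at a time gave 0 to 3 genes in AOS against control, 2 to 5 in HFD_STZ_AOS_FMT against HFD_STZ, 1 to 14 in HFD_STZ_control_FMT against HFD_STZ, 2 to 5 between the transfers and 3 to 157 in the F test. The main effect of HFD_STZ then had 110 to 695 genes and 0 to 2 of the 38, and that of AOS 0 to 374 genes and 0 to 3 of the 38. With 3 libraries a group, the median standard error of the 38 log2 differences between 2 groups was 0.06, and each gene's own interval sets what can be resolved.

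Whether libraries of the same replicate number share a batch could not be settled by their correlations. Deviations of same-numbered libraries correlated at -0.25 to 0.41 over 45 pairs, with a median of 0.00 and 11 above 0.1. Those of differently numbered libraries in different groups correlated at -0.35 to 0.38 over 90 pairs, with a median of -0.01 and 13 above 0.1. The replicate block gave 4 of the 38 in the main effect of AOS (Izumo2, Dkkl1, Dpy19l2 and Clgn) against 1 without it, 2 genes in HFD_STZ_control_FMT against HFD_STZ and 10 in the F test.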
